A study of Mus musculus with 2 samples.

Results

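Mir183, Mir96 and Mir182 form the sensory microRNA cluster, 3 hairpins that lie within 3820 bases of mouse chromosome 6. They were taken by gene name from the 2202 microRNA genes counted in small RNA of the adrenal gland, and all 3 were found. The tissue came from 25-day-old male mice of B6CASTF1/J, the F1 cross between the strains C57BL/6J and CAST/EiJ. There was 1 group, without treatment, altered allele or second group, and it was sampled by 2 libraries. The labels give the animals numbers of their own but 1 common donor entry, so the spread between the libraries may be technical, and p-values between them speak of these libraries only.

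A microRNA is cut from a hairpin transcript and guides silencing proteins to messenger RNAs, chiefly through its seed, bases 2 to 8 of the mature strand. The Mir183, Mir96 and Mir182 hairpins are made from a common precursor and are known from photoreceptors, inner ear hair cells, olfactory and other sensory neurons, the pineal gland and several endocrine cells. Mutation of the seed of miR-96 causes hearing loss in mice and people. The adrenal gland joins a steroid-producing cortex to a medulla of chromaffin cells, which are neuroendocrine and derive from the neural crest.

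The mature strands of the cluster are related in sequence but distinct, which bears on how they are counted. The strand from the 5′ arm is printed below for each hairpin, from RefSeq (GRCm38.p6), with the seed in capitals.
mmu-miR-183-5p: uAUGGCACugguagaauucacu
mmu-miR-96-5p: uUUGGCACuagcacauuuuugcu
mmu-miR-182-5p: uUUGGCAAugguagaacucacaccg
The 3 seeds are related but not identical. Positions are counted from 1 at the 5′ end, and each substitution gives the base of the first-named strand, then that of the second. Between miR-183 and miR-96 the seeds differ at 1 of 7 positions, A2U. Between miR-96 and miR-182 they also differ at 1, C8A. Between miR-183 and miR-182 they differ at 2, A2U and C8A. Outside the seed the order of likeness changes. Aligned from the first base without gaps, miR-183 and miR-182 were identical at 18 of 22 positions, differing elsewhere only by U17C and U22A. miR-183 and miR-96 were identical at 13 of 22, and miR-96 and miR-182 at 12 of 23.

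The opposite arms are less alike, and no seed recurs among the 6 mature strands of the cluster.
mmu-miR-183-3p: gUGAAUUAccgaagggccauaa
mmu-miR-96-3p: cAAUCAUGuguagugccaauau
mmu-miR-182-3p: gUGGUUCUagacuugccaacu
The counts are per hairpin and join both arms, so the arm a read came from is not given. Both arms are in capitals in the hairpins below.
Mir183: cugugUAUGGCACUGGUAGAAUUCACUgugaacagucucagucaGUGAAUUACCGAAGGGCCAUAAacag
Mir96: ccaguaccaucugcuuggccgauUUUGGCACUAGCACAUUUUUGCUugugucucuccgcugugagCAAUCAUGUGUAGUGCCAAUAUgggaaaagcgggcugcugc
Mir182: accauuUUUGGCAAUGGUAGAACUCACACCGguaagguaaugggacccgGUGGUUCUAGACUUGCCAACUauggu
The longest run that a member shares with any of the other 2201 annotated hairpins, on either strand, was 14 bases for Mir183 and 11 bases each for Mir96 and Mir182. No shared run reached the length of the shortest mature strand of the cluster, 21 bases. Copies elsewhere in the genome were not searched.

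All 3 hairpins lie on the minus strand of chromosome 6 (mm10, GENCODE M21), and none overlaps an annotated gene on either strand. Mir183 (ENSMUSG00000065619.2, 30169668 to 30169737) comes first in the direction of transcription. Mir96 (ENSMUSG00000065586.1, 30169446 to 30169551) follows after 116 bases, and Mir182 (ENSMUSG00000076361.1, 30165918 to 30165992) after a further 3453 bases. Rncr4, a long noncoding RNA gene on the plus strand, begins 3155 bases before the 5′ end of Mir183, and the nearest protein-coding gene on the other side is Nrf1, 12459 bases past Mir182. The intergenic stretches and these neighbours were not measured, since the tables hold microRNA genes only.

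The cluster was expressed in the adrenal gland in both libraries, at a low level and very unevenly among its members. Mir182 was far above Mir183, and Mir183 above Mir96. Levels are sense counts per 1000000 sense counts of all microRNA genes (CPM), from totals of 3588361 in replicate 1 and 4541373 in replicate 2. The libraries differed in Mir122, a hepatocyte hairpin, which took 0.0892% of the counts in replicate 1 and 19.8% in replicate 2, so values that rest on the total are also given without it where that matters. All 3 members passed the minimum of 10 counts in both libraries, as did 352 of the 2202 genes.

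Mir182, named in studies of hearing and retina and in several tumours, had 1495 counts in replicate 1 and 2160 in replicate 2. These were 417 CPM (396 to 438, exact Poisson interval at 95%) and 476 CPM (456 to 496). The mean was 446 CPM ± 41.7 (SD, n = 2), at rank 108 of the detected hairpins. The level was thus somewhat higher in replicate 2, and the counting intervals did not overlap. The ranks in the separate libraries were nearly the same, 106 and 104.

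Mir183, the first hairpin of the precursor, had 399 counts in replicate 1 and 248 in replicate 2. Its level was 111 CPM (101 to 123) in replicate 1 and 54.6 CPM (48.0 to 61.8) in replicate 2, with a mean of 82.9 CPM ± 40.0 (SD, n = 2) at rank 187. Replicate 1 was high and replicate 2 low, with intervals far apart, and its ranks were 173 and 203.

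Mir96, the member with the hearing mutations, had only 40 and 65 counts. It stood at 11.1 CPM (7.96 to 15.2) in replicate 1 and 14.3 CPM (11.0 to 18.2) in replicate 2, with a mean of 12.7 CPM ± 2.24 (SD, n = 2) at rank 284. The intervals overlapped. Even so, both values lay well above 3 counts, the limit set for a count of 0. It was worth 0.836 CPM in replicate 1 and 0.661 CPM in replicate 2. This limit is a fixed setting and not a two-sided exact interval like those above. All intervals and limits cover counting error alone and treat reads as independent. Reads were counted without molecular identifiers, so copies of 1 molecule cannot be told apart, and the intervals may be too narrow.

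**Figure D1:**
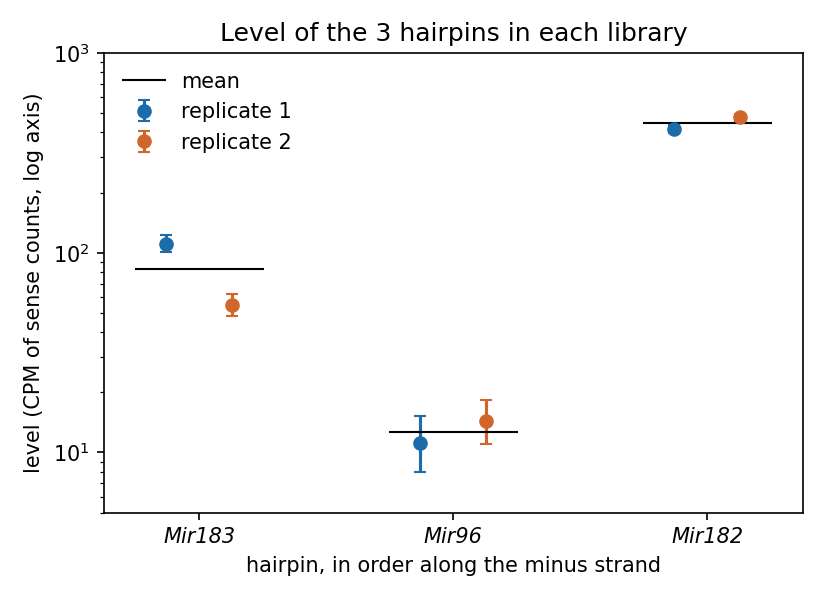
Level of each hairpin in CPM of sense counts on a log axis, with replicate 1 in blue, replicate 2 in orange, 95% exact Poisson intervals as bars and the mean of both libraries as a line. Mir182 lies above Mir183 and Mir183 above Mir96 in both libraries, and Mir183 is the member farthest apart between them, with 111 and 54.6 CPM.

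The order Mir182, Mir183, Mir96 held in both libraries, and no interval of one member reached that of another. Each read is a short molecule of 1 hairpin, so levels were compared as counts. Per 100 bases of hairpin the order was the same, with 556, 159 and 10.5 CPM for Mir182, Mir183 and Mir96 in replicate 1 and 634, 78.0 and 13.5 CPM in replicate 2. How well each sequence is ligated and amplified was not measured, and its part in the order was not tested.

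Summed over the 3 hairpins and set against all counts, the cluster was at nearly the same level in both libraries. It had 1934 counts, or 539 CPM, in replicate 1 and 2473 counts, or 545 CPM, in replicate 2. The ratio of replicate 2 to replicate 1 was 1.01 (0.952 to 1.07, exact interval). The mean was 542 CPM ± 3.95 (SD, n = 2), and the cluster's part of all counts was 0.0539% in replicate 1 and 0.0545% in replicate 2. This near equality hinges on Mir122: per 1000000 counts of the other genes the cluster stood at 539 and 679 CPM, a ratio of 1.26 (1.18 to 1.34).

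The make-up of the cluster differed between the libraries, a comparison that needs no library total. Mir183 supplied 20.6% of the cluster's counts in replicate 1 (18.8% to 22.5%, exact Clopper-Pearson interval at 95%) and 10.03% in replicate 2 (8.87% to 11.3%). Mir182 supplied 77.3% (75.4% to 79.2%) and 87.3% (86.0% to 88.6%). Mir96 supplied 2.07% (1.48% to 2.81%) and 2.63% (2.03% to 3.34%). The share of Mir183 was thus higher in replicate 1 and that of Mir182 higher in replicate 2, while Mir182 was the major member in both.

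Two-sided Fisher's exact tests of each member against the other two, adjusted by Benjamini-Hochberg over the 3 tests, set these shifts against counting error. The share of Mir183 was lower in replicate 2, by -10.6 percentage points (replicate 2 minus replicate 1, adjusted p = 2.7e-22, exact). The share of Mir182 was higher there, with an adjusted p of 3.9e-18 (exact). That of Mir96 differed by 0.56 points (adjusted p = 0.23, exact), which did not pass the threshold of 0.05. Shares add up to the whole, so the differences of Mir183 and Mir182 are not independent of each other.

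**Figure D2:**
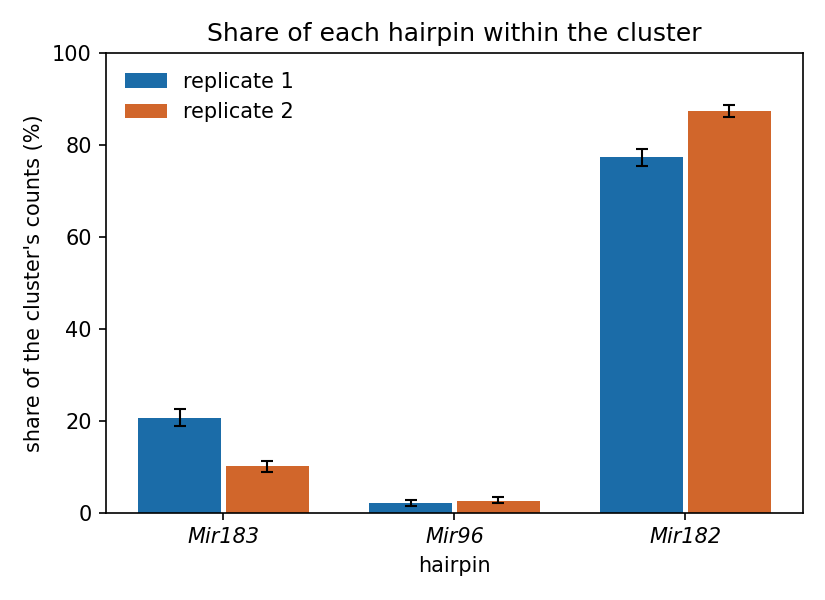
Share of the cluster's sense counts from each hairpin, in percent, in replicate 1 (blue, 1934 counts) and replicate 2 (orange, 2473 counts), with 95% exact Clopper-Pearson intervals. Mir183 supplies 20.6% and 10.03%, Mir182 77.3% and 87.3%, and the intervals overlap for Mir96 alone.

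Pairwise ratios showed Mir183 to be the member out of step. Mir182 had 37.4 times the counts of Mir96 in replicate 1 (27.3 to 52.5) and 33.2 times in replicate 2 (26.0 to 43.2). That ratio was 0.889 times as large in replicate 2 (two-sided Fisher's exact test, adjusted p = 0.62 over 3 pairs), with wide intervals set by the few Mir96 counts. Mir182 had 3.75 times the counts of Mir183 in replicate 1 (3.35 to 4.19) and 8.71 times in replicate 2 (7.63 to 9.97), a 2.32-fold change (adjusted p = 5.3e-22, exact). Mir183 had 9.97 times the counts of Mir96 (7.20 to 14.2) in replicate 1 and 3.82 times (2.89 to 5.09) in replicate 2 (adjusted p = 1.4e-05, exact). The neighbours Mir183 and Mir96, 116 bases apart, therefore differed more in their ratio between the libraries than Mir96 and Mir182, which are 3453 bases apart.

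Most detected hairpins, not only Mir183 and Mir182, differed between the libraries by more than counting error. The counts of each detected gene were set against the totals by a two-sided exact binomial test, adjusted by Benjamini-Hochberg over all 352. It called 67.0% of them, 30.4% as higher and 36.6% as lower in replicate 2, and 2 of the 3 members. With the 2 libraries differing at most genes, a call says little about a member. With totals that leave out Mir122 it called 71.3%, with 176 genes higher and 75 lower against 107 and 129 before, and the median gene moved by 0.30 on the log2 scale.

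Mir183 was 2.04-fold higher in replicate 1 (1.73 to 2.40, exact interval), with an adjusted binomial p of 1.5e-18. Its log2 ratio of replicate 2 to replicate 1, with a pseudocount of 1 CPM, was -1.01. The median detected gene was at -0.04, so Mir183 stood at -0.97 relative to it. Of the 352 detected genes, 25 had a lower ratio than Mir183, and 290 lay within 2-fold.

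Mir182 was 1.14-fold higher in replicate 2 (1.07 to 1.22), with an adjusted binomial p of 0.00016. It stood 0.23 above the median gene on the log2 scale. Mir96 had a ratio of 1.28 (0.853 to 1.95) and an adjusted binomial p of 0.31, and stood 0.37 above the median gene. With Mir122 out of the totals the log2 ratio of Mir96 was 0.63 and the adjusted binomial p 0.027, so its call depends on the total.

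**Figure D3:**
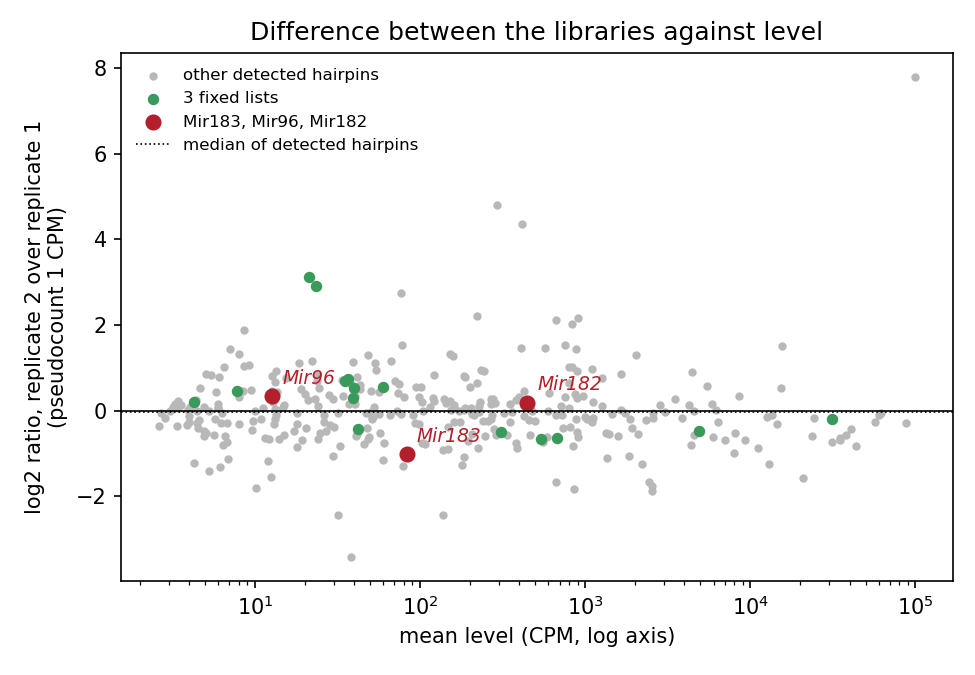
Log2 ratio of replicate 2 to replicate 1 (pseudocount 1 CPM) against mean level in CPM on a log axis, for the 352 detected hairpins. The members are red, the detected hairpins of the neuroendocrine, retinal and miR-200 lists green, the rest grey, and the dotted line is the median of -0.04. Mir183 lies at -1.01, below most hairpins of its level, while Mir96 and Mir182 lie slightly above the median.

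Uneven levels inside a cluster, as counted, were common in these libraries. Clusters were taken as 2 or more detected hairpins of 1 strand, each less than 10 kb from the next, which gave 46. In the sensory cluster the highest mean level was 35.0 times the lowest, at rank 14 of 46, where the median cluster had 14.6 times and the range ran from 1.06 to 2370. Among the 9 clusters with exactly 3 detected hairpins it came at rank 4, with a median of 30.1. The most uneven of those 9 were Mir23b, Mir27b and Mir24-1 at 1025 times and Mir23a, Mir27a and Mir24-2 at 232 times, hairpins with near-identical copies in each other's cluster. Reads that map to several places were not counted, so a hairpin with such a copy can have too few counts. That can widen the spread of its cluster. Other clusters above the sensory one also hold numbered copies, such as Mir29b-1, Mir181a-2 and Mir30c-1. The part of this in the ranks and medians was not tested.

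The shift between libraries inside the cluster was likewise met in other clusters. The log2 ratios of Mir183, Mir96 and Mir182 spanned 1.35, and 12 of the other clusters spanned more, with a median over all 46 of 0.95. Among the 9 clusters of 3 hairpins, 4 spanned more. Spans grow with the number of hairpins and with counting error, so ranks among clusters are a description only.

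**Figure D4:**
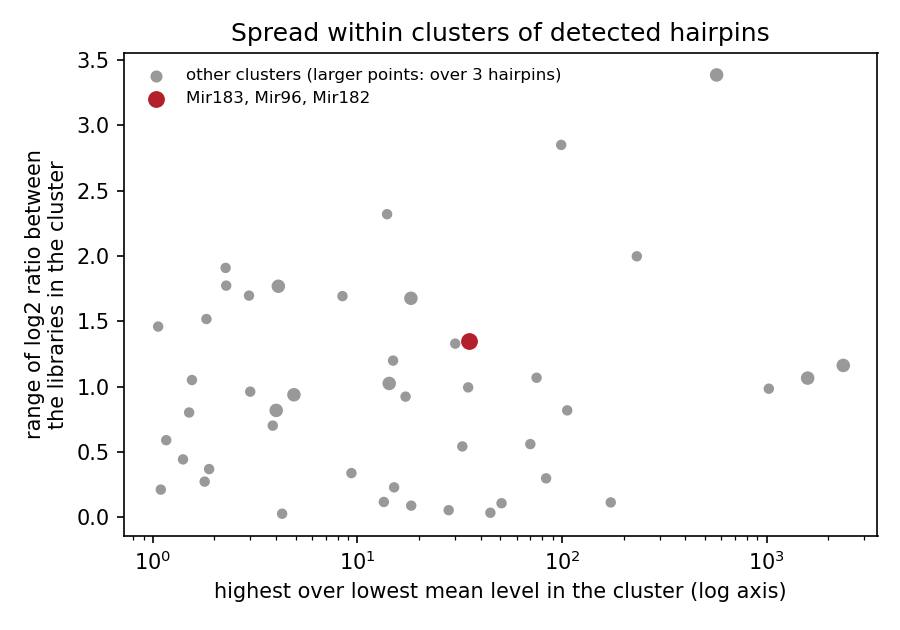
For each of 46 clusters of detected hairpins, the highest over the lowest mean level (log axis) against the range of log2 ratios between the libraries. The sensory cluster (red) lies at 35.0 and 1.35, inside the cloud of the other clusters (grey, larger points for those with over 3 hairpins).

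Hairpins that share a seed with the cluster were almost without reads. The RefSeq table holds 1738 mature mouse strands. The seed of miR-96-5p recurs in miR-1271-5p, whose hairpin is annotated as Gm24195 on chromosome 13, and the seed of miR-96-3p in miR-3475-5p.
mmu-miR-1271-5p: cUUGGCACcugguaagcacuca
mmu-miR-3475-5p: aAAUCAUGuacccccacagagg
Gm24195 had 0 counts in both libraries, where the set limit of 3 counts is worth 0.836 and 0.661 CPM. Mir3475 had 3 and 5 counts. The seeds of miR-183-5p, miR-182-5p and their opposite arms recurred in no other strand of the table. Mir96 was thus the sole detected hairpin of that table that carries the seed of miR-96-5p, though the arm of its reads is not given.

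The cluster was set beside hairpins of the tissues in which it is known. Of 16 neuroendocrine and neuronal hairpins, 10 were detected, 3 called higher and 5 lower in replicate 2, beside 30.4% higher and 36.6% lower over all 352 genes, with a median log2 ratio of 0.05 against -0.04 over all detected genes. With Mir122 out of the totals, a comparison added for the lists after the data had been seen, 6 were called higher and 4 lower. Those same totals gave 176 higher and 75 lower calls among all 352 detected genes. Mir375, which marks pancreatic islet and other endocrine cells, led the list with 33380 CPM in replicate 1 and 29004 CPM in replicate 2. Mir7b, abundant in neuroendocrine and hypothalamic cells, had 5683 and 4084 CPM. Mir132, induced by neuronal activity, had 819 and 530.2 CPM, and Mir137, a neuronal hairpin, 660 and 419 CPM. Mir7-1 had 364 and 260 CPM. These 5 hairpins were lower in replicate 2, as Mir183 was, but with Mir122 out of the totals Mir375 turned to a ratio of 1.08 of replicate 2 to replicate 1, while Mir7b, Mir132, Mir137, Mir7-1 and Mir183 were lower there under both totals. Mir182 stood above Mir7-1 and below Mir132 in both libraries, while Mir375 and Mir7b lay far above the whole cluster. Mir7-1 and Mir7-2 are numbered copies, and reads that map to both were not counted. The counts of Mir7-1 therefore set no upper limit on it, and its place below Mir182 holds for the counted reads only.

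The neuronal hairpins of lower counted level went the other way. Mir153, a brain hairpin, had 27.3 CPM in replicate 1 against 46.5 CPM in replicate 2. Mir129-2 had 26.8 and 43.6 CPM, and Mir7-2 had 48.5 and 71.6 CPM, so that these 3 were higher in replicate 2. Mir212 (35.1 and 43.4 CPM) and Mir129-1 (6.41 and 9.25 CPM) did not pass the test, though both did, as higher, with Mir122 out of the totals. All of these lay between Mir183 and Mir96 in mean level except Mir129-1, which was below Mir96. Mir7-2, Mir129-1 and Mir129-2 are numbered copies, so their levels and ratios rest on the reads that map to no other place.

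Retinal and pineal hairpins that accompany the cluster in photoreceptors were nearly all unseen. Of 8 listed, only Mir204, of pigment epithelium and retina, was detected, with 48.5 CPM in replicate 1 and 35.7 CPM in replicate 2. Mir204 was called lower in replicate 2, but not with Mir122 out of the totals (ratio 0.916, adjusted binomial p = 0.51). Mir211, its relative, had 2 and 3 counts. The 3 Mir124a and 3 Mir9 hairpins had 1 count in all, from Mir9-3, but they exist as near-identical copies whose reads map to several places and were not counted, so this sets no limit on them. Mir183 and Mir182 were higher than Mir204 in both libraries, and Mir96 was lower.

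The miR-200 family, which keeps epithelial cells in their state and is found with the sensory cluster in olfactory epithelium, stood far below Mir182 and, unlike Mir183, was higher in replicate 2. Of 5 hairpins 4 were detected, 3 called higher and 0 lower in replicate 2 under both totals. Over all 352 genes 30.4% were called higher and 36.6% lower with the full totals. With Mir122 out of the totals 176 of the 352 were called higher and 75 lower. The median log2 ratio of the 4 detected hairpins was 1.72, against -0.04 over all detected genes. The level of Mir429 was 3.62 CPM in replicate 1 and 39.0 CPM in replicate 2, and Mir200b had 4.74 and 41.8 CPM. Mir200c had 32.3 and 47.3 CPM, and its neighbour Mir141, at 3.90 and 4.62 CPM, did not pass the test. Mir200a, with 4 and 45 counts, missed the minimum in replicate 1. The summed level of the family was 45.7 CPM in replicate 1 and 143 CPM in replicate 2, against 539 and 545 CPM for the sensory cluster.

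Markers of other cells also differed between the libraries, and their part in the differences of Mir183 and Mir182 was not tested. The level of Mir122, the hepatocyte marker, was 892 CPM in replicate 1 and 197553 CPM in replicate 2. The kidney list, Mir192, Mir194-1, Mir194-2 and Mir204, summed to 106 and 1399 CPM, with none of the 4 at 0. Mir192 (19.5 and 569 CPM) and Mir194-2 (37.6 and 789 CPM) made up most of the higher sum, and Mir204 was not higher. The skeletal muscle list summed to 993 and 0.661 CPM, nearly all of it Mir206, with 1 of 5 hairpins at 0 in replicate 1 and 4 in replicate 2. The others on that list, Mir1a-1 with Mir1a-2 and Mir133a-1 with Mir133a-2, are numbered copies, as are Mir194-1 and Mir194-2 of the kidney list. Reads that map to both copies were not counted, so low counts and zeros set no limit on these hairpins. The leukocyte list of Mir142, Mir150, Mir223 and Mir155 summed to 2280 and 1077 CPM. Of these, 4 of 4 were called lower in replicate 2, beside 36.6% of all genes. With Mir122 out of the totals it was 3 of 4, beside 75 of all 352 genes. The erythroid pair Mir451a and Mir144 summed to 1487 and 1248 CPM, the neuroendocrine list of Mir375, Mir7-1, Mir7-2 and Mir7b to 39476 and 33420 CPM, and Mir126a of endothelium stood at 62826 and 60799 CPM. The direction of these last 3 depends on the total, since per 1000000 counts of genes other than Mir122 they stood at 1488 and 1555, 39511 and 41647, and 62882 and 75767. As the tissue was sequenced in bulk, fewer cells of a type and less RNA per cell cannot be told apart. The tables hold no messenger RNA, so only these hairpins could be set against the tissue label. No list was of adrenal cortex cells, so the label as a whole was not checked.

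With the members left out of the search, the hairpins nearest in level to each lay on other chromosomes, apart from 1 for Mir96. Likeness was the larger of the 2 absolute differences in log2(CPM + 1), over the 2 libraries. For Mir182 these were Mir299a (0.09), Mir298 (0.21) and Mir540 (0.22). Mir299a and Mir540 belong to the imprinted Dlk1-Dio3 region of chromosome 12. For Mir183 they were Mir224 (0.27), Mir450b (0.48) and Mir181a-1 (0.50). Mir224, on the X chromosome, had 113 and 45.1 CPM. It was picked for likeness in both libraries, so its lower level in replicate 2 is no separate result. For Mir96 they were Mir1188 (0.07), Mir6240 (0.10) and Mir8112 (0.14), the last on chromosome 6 as well. Mir8112 starts at position 71271671, outside the cluster. With 2 libraries such likeness is a matter of level and of 1 ratio only.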

How the data were processed

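Small RNA of 2 adrenal gland libraries was sequenced after selection of short molecules, per the labels. The authors deposited raw counts of reads per microRNA gene on mm10 with GENCODE M21, per the accompanying text files, and the aligner is not given in the sources used here. Values showed either-strand, sense and antisense columns. The 4 summary lines were kept out of totals. Reads mapped to several places, 31.6% and 27.0% of input in replicates 1 and 2, were not counted per gene, and sense counts were 41.4% and 44.2% of input. GENCODE M21 named all 2202 identifiers.

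With 1 library on each side no count model can be fitted, so exact binomial and Fisher tests were used, checked on simulated data, at a threshold of 0.05 after Benjamini-Hochberg adjustment. Genes needed 10 counts per library. Genes named were the members, the 3 detected genes nearest to each in level, detected genes of the 3 lists, hairpins sharing a seed, neighbouring genes and cell type markers. Undetected list members and the clusters named for their spread were added after their values were seen. The members and lists were chosen with earlier results of these data known.

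Alternatives were other totals (without Mir122, or all input reads), edgeR 4.0.16 TMM factors, DESeq2 1.42.0 size factors, either-strand counts, other minimums and pseudocounts, and each library left out. Python 3.11.15 was used with scipy 1.17.1, numpy 2.4.6 and pandas 2.3.3, and R 4.3.3 for the factors; figures were drawn with matplotlib 3.10.9.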

Additional observations from a re-analysis of the deposited data

How the results depend on the processing

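The log2 ratio of Mir183 ran from -1.04 to -0.70 and that of Mir182 from 0.16 to 0.51 over 9 alternatives each. Both passed the binomial test in all 9. Mir96 ran from 0.20 to 0.63 over 8, with adjusted binomial p from 0.027 to 0.48. It passed in 1, at 0.63 with totals without Mir122, and a minimum of 50 counts left it untested. The pseudocounts change the ratio but not the test, and the other minimums change only its adjustment. Those alternatives therefore repeat the main test and are no separate support for a call. Per 1000000 input reads the mean levels of Mir183, Mir96 and Mir182 were 35.1, 5.47 and 191. With the either-strand column Mir96 and Mir182 kept the same counts, but the total was smaller, so Mir96 had 15.1 CPM and Mir182 530.2 CPM. The reason for the smaller total was not tested. Without Mir122 in the total, Mir182 had 505 CPM. Using the single libraries, the share of Mir183 ran from 10.03% to 20.6% and that of Mir182 from 77.3% to 87.3%. The number of genes called ran from 208 of 267 tested, with a minimum of 50 counts, to 251 of 352, without Mir122 in the total. With at least 1 count in either library as the only filter, it was 245 of 749. The share called therefore varied more than the number. No paired analysis was possible because there is 1 group. Depth limits Mir96 most, with 40 and 65 counts. Reads of the CAST/EiJ allele were counted on a C57BL/6J reference, and the effect of that was not tested.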
